A study of Mus musculus with 20 samples.

Results

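The genes described here encode precursors of neuropeptides other than the main arcuate peptides NPY, AgRP, POMC and CART, together with the granins that are stored with them and a few other secreted neuronal signals. They were chosen by gene symbol from a list of 36 names, and all 36 were found among the 22048 genes of both count tables. RNA was measured in the arcuate nucleus (ARC), a nucleus at the base of the hypothalamus that was cut from frozen brain sections by laser capture microdissection. Male C57BL6/J mice, 10 weeks old, drank either vehicle (Veh, 1% ethanol) or corticosterone (Cort, 75 µg/ml in 1% ethanol), the main glucocorticoid of rodents. Treatment lasted 2 days or 4 weeks, with 5 samples in each of the 4 groups. Mice treated for 4 weeks were also fasted for 16 h and refed for 24 h before collection, and their tissue was sectioned, captured and sequenced on other instruments than that of the 2 day mice, so the length of treatment cannot be told apart from these differences.

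Neuropeptides are made as long precursors that pass through the secretory pathway, are packed into dense-core vesicles and are cut there into active peptides by prohormone convertases. Granins are acidic proteins that help to form those vesicles. Most hypothalamic peptides are made by a small group of neurons in a defined nucleus: vasopressin and oxytocin by magnocellular neurons of the paraventricular and supraoptic nuclei, orexin and melanin-concentrating hormone by neurons of the lateral hypothalamus, VIP and neuromedin S by the suprachiasmatic nucleus. In bulk tissue such as this, fewer cells of a type and less RNA per cell cannot be told apart.

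The total count per sample was 2487063 to 5748223 after 2 days and 1065776 to 5196364 after 4 weeks, so that 3 counts, used here as the detection floor, corresponded to 0.522 to 1.21 CPM (the count scaled to library size) and 0.577 to 2.82 CPM. These floors cover counting error only, since the cDNA was amplified from 2 ng of RNA and reads carried no molecular identifiers. CPM were scaled by trimmed mean of M values within each dataset. Samples carry separate numbers in the labels, and P values measure the spread between them. The study left out 2 Veh samples and 1 Cort sample of each dataset after principal component analysis, and tests were run on the other 3 Veh and 4 Cort samples. Values of the samples left out are given beside the rest for the genes listed by sample. Samples are named by their number in the count tables, C01 to C10. The arcuate markers Agrp, Npy and Pomc were detected in every sample, at no less than 122, 307 and 236 CPM after 2 days and 18.0, 48.7 and 20.2 CPM after 4 weeks.

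Among these transcripts Scg2, Chgb and Scg3, which encode granins, had the highest median levels. Levels between genes were compared as CPM per kilobase of exon. After 2 days the median over 10 samples was 465 CPM per kb for Scg2 (secretogranin II), 178 for Chgb (chromogranin B) and 143 for Scg3 (secretogranin III). Scg2 ranged from 324 to 620 CPM per kb, above every sample of Chgb (98.5 to 264) and Scg3 (107 to 154), whereas the ranges of Chgb and Scg3 overlapped. For comparison, the median of Agrp was 432 CPM per kb and that of Npy 916.

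Oxt (63.6 CPM per kb), Avp (57.9) and Penk (49.5) came next by median after 2 days, followed by Chga (29.6), Vgf (22.2), Nmb (20.1), Tac1 (17.7), Cck (15.1) and, last, Trh and Pnoc (10.3). The ranges of neighbours in this order overlapped. Over the 7 samples tested Avp (57.2) and Penk (51.5) came before Oxt (38.5). At the other end, Npw, Npff, Ucn3 and Calcb had 0 counts in all 20 samples, which allows a level of up to the floor given above. Crh, the corticotropin-releasing hormone of the paraventricular nucleus, had 1 count in 1 of the 20 samples.

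After 2 days 21 of the 36 genes had counts in all 10 samples and 14 had at least 10 counts in all of them. After 4 weeks these numbers were 7 and 5, and the 5 were Penk, Scg2, Scg3, Chga and Chgb. Nmu, Hcrt, Pmch and Npvf, which encode neuromedin U, orexin, melanin-concentrating hormone and the RFamide-related peptides, had 0 counts in all 10 samples after 4 weeks. After 2 days the highest level of Pmch was 6.74 CPM and that of Hcrt 0.893 CPM. Of the exon bases of Pmch 58.1% overlap Parpbp on the opposite strand, and without strand in the counting their reads cannot be told apart.

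**Figure D1:**
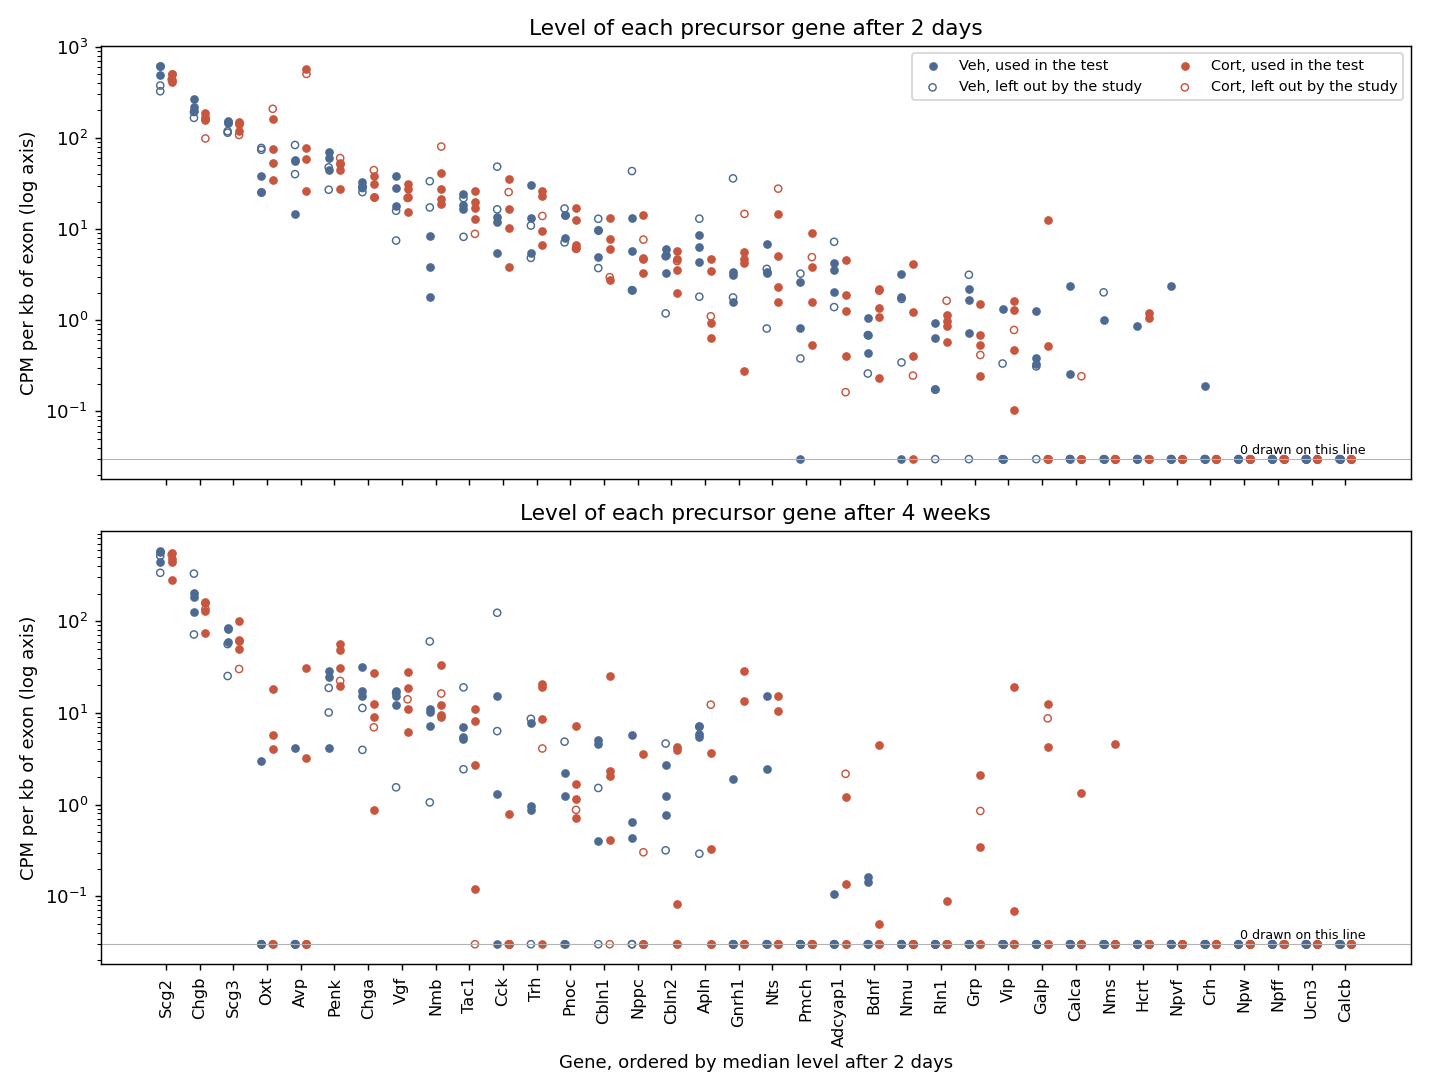
Level of each of the 36 precursor genes in every sample, as CPM per kilobase of exon on a log axis, after 2 days (top) and 4 weeks (bottom), with values of 0 drawn on the lowest line. Blue points are Veh and red points Cort samples, and open points are samples left out by the study. Scg2, Chgb and Scg3 lie at the top in both datasets. Many genes to the right of Pnoc have samples at 0 after 4 weeks, as do Oxt, Avp, Tac1, Cck, Trh and Pnoc itself.

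The first question was which of these transcripts differed between Cort and Veh samples after 2 days. Nmb, Avp and Oxt were higher and Chgb, Scg2 and Apln were lower in Cort samples at an unadjusted P below 0.05 (edgeR quasi-likelihood test), but none of the 36 reached Padj < 0.1 after Benjamini-Hochberg adjustment over all genes tested, where 0.065% of genes did. Of the 36 genes 24 passed the filter on low counts and were tested. The 6 genes with P below 0.05 are 6 of these 24, against 5.97% of the 12309 genes tested. The 3 that were higher stand against 3.14% of all genes, and the 3 that were lower against 2.83%. The Veh and Cort samples did not overlap for 2 of the 24, Nmb and Chgb, against 6.63% of all genes. The median log2 fold change over the 24 was -0.08, against 0.02 over all genes. With all 10 samples 22 were tested and 6 had P below 0.05 (Apln, Avp, Chgb, Nmb, Nts and Oxt), against 5.28% of genes.

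**Figure D2:**
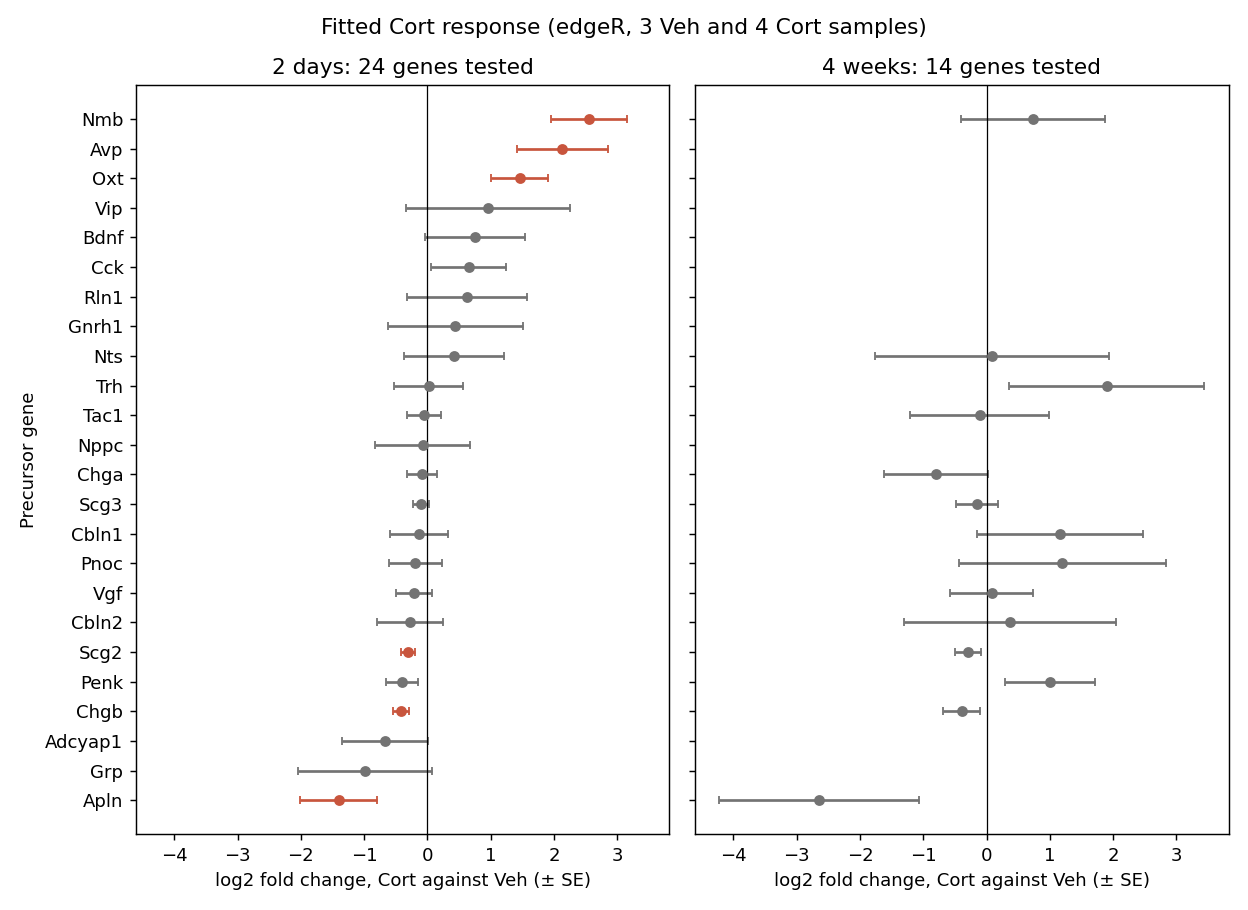
Log2 fold change of Cort against Veh with its standard error for each precursor gene tested, after 2 days (left, 24 genes) and 4 weeks (right, 14 genes), from 3 Veh and 4 Cort samples. Red marks an unadjusted P below 0.05. After 2 days Nmb, Avp and Oxt lie furthest to the right and Apln furthest to the left, and after 4 weeks no gene is red.

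Nmb encodes neuromedin B, a bombesin-like peptide that acts on the receptor NMBR. In Veh samples after 2 days Nmb was at 6.72, 3.02 and 1.42 CPM in C02, C04 and C05. In Cort samples it was at 32.3, 16.8, 21.6 and 15.1 CPM in C01, C03, C06 and C10. Every Cort sample lay above every Veh sample among these 7. The mean was 3.72 ± 2.72 CPM (SD, n = 3) in Veh and 21.5 ± 7.71 CPM (SD, n = 4) in Cort.

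The log2 fold change of Nmb was 2.55 ± 0.60 (SE), with P = 0.000376 and Padj = 0.351 in edgeR, and an exact two-sided permutation test gave P = 0.0286, the smallest that 3 against 4 samples can give. DESeq2 gave a log2 fold change of 2.56 with Padj = 0.00791, and edgeR without a filter on low counts gave Padj = 0.0799, so the call depends on the tool and the filter. The paper, which used DESeq2 on the samples it kept, reports Nmb as strongly increased by Cort after 2 days. It also reports a clear correlation between RNA-seq and qRT-PCR for a selection of its 2 day genes. The left-out samples were at 26.5 and 13.7 CPM (Veh, C07 and C09) and 63.7 CPM (Cort, C08), and with them the groups overlapped and the log2 fold change was 1.55 ± 0.60 (edgeR, Padj = 0.923). Agrp was also higher in the left-out Veh samples C07 and C09 (560 and 437 CPM) than in the other Veh samples (122 to 219 CPM). The summed level of 5 tanycyte markers was 46.3 to 94.4 CPM in the 3 Veh and 100.2 to 148 CPM in the 4 Cort samples tested. In the left-out samples it was 270 and 139 CPM (Veh, C07 and C09) and 290 CPM (Cort, C08). These samples lay above the tested Veh samples in both the sum and Nmb. Within the tested Veh samples the order was reversed. C02 had the lowest sum (46.3 CPM) and the highest Nmb, and C05 the highest sum (94.4 CPM) and the lowest Nmb. Among the tested Cort samples C10 had the highest sum (148 CPM) and the lowest Nmb. Of these markers 3 passed the filter, and 1 was higher and 2 were lower in Cort samples (median log2 fold change -0.43). The sum also includes Dio2, which the paper reports as increased by Cort, so it does not measure tanycyte content alone. The part of these differences in the values of Nmb was not tested.

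The Nmb gene lies at chr7:80902227-80905076 on the minus strand of GRCm38, and 20.6% of its exon bases overlap exons of Sec11a on the same strand, so reads there can be assigned to either gene or to none. Sec11a, a subunit of the signal peptidase complex, was at 50.1 ± 4.88 CPM in Veh (SD, n = 3) and 59.2 ± 11.4 CPM in Cort (SD, n = 4), with a log2 fold change of 0.25 ± 0.26 (edgeR, Padj = 0.946). The receptor gene Nmbr was at 3.22 ± 2.91 CPM in Veh and 4.03 ± 3.42 CPM in Cort, a log2 fold change of 0.35 ± 1.02 (edgeR, Padj = 0.975). Grp, which encodes gastrin-releasing peptide, the other mammalian bombesin-like peptide, was low, at 0 to 4.66 CPM in the 10 samples, with a log2 fold change of -0.98 ± 1.06 (edgeR, Padj = 0.946).

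Oxt and Avp encode oxytocin and vasopressin, each with the neurophysin that carries it. The genes are neighbours on chromosome 2 on opposite strands, 3565 bases apart (Oxt at chr2:130576173-130577054, Avp at chr2:130580620-130582554). After 2 days Oxt was at 13.7, 20.7 and 13.6 CPM in Veh samples C02, C04 and C05 and at 18.6, 28.6, 86.8 and 41.0 CPM in Cort samples C01, C03, C06 and C10. The highest Veh sample lay above the lowest Cort sample.

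Avp was at 31.8, 33.0 and 8.34 CPM in the same Veh samples and at 15.0, 44.5, 326 and 33.8 CPM in the same Cort samples. The groups overlapped, and C06 stood far above the rest. The left-out Cort sample C08 was also high, at 112 CPM for Oxt and 290 CPM for Avp, and the left-out Veh samples C07 and C09 were at 39.7 and 41.6 CPM for Oxt and 23.1 and 48.2 CPM for Avp. C06 and C08 thus held the highest values of both genes among the 10 samples.

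Log2 fold changes were 1.46 ± 0.45 for Oxt (edgeR, P = 0.00429, Padj = 0.543, exact permutation P = 0.0857) and 2.13 ± 0.72 for Avp (edgeR, P = 0.00811, Padj = 0.621, exact permutation P = 0.343). Without a filter on low counts Avp had Padj = 0.0404 in edgeR. Without C06 the log2 fold changes were 0.88 for Oxt (edgeR, Padj = 0.757) and 0.35 for Avp (edgeR, Padj = 0.944), and the number of precursor genes with P below 0.05 was 4 rather than 6. With all 10 samples they were 1.16 ± 0.44 (edgeR, Padj = 0.921) and 2.32 ± 0.61 (edgeR, Padj = 0.694).

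Markers of the paraventricular and supraoptic nuclei were present beside these peptides. The markers other than peptides were Sim1, Pou3f2 (transcription factors needed for magnocellular neurons) and Caprin2 (an RNA-binding protein), and their summed level was 9.95 to 21.1 CPM in the 5 Veh samples and 8.36 to 36.4 CPM in the 5 Cort samples. Pou3f2 was highest in C06, at 28.0 CPM against 4.31 to 18.4 CPM in the other 9 samples, and had a log2 fold change of 1.32 ± 0.58 (edgeR, Padj = 0.803). Caprin2 was highest in C08, at 19.0 CPM against 1.02 to 7.76 CPM. Sim1 was at 0 in 4 of the 10 samples and highest in the Veh sample C05, at 6.10 CPM. The part of these cells in the levels of Oxt and Avp was not tested. Oxtr and Avpr1a, which encode receptors of these peptides, had log2 fold changes of -0.60 ± 0.51 (edgeR, Padj = 0.933) and -1.05 ± 0.85 (edgeR, Padj = 0.927).

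Among the granins Chgb and Scg2 were lower in Cort samples after 2 days. Chgb was at 546, 723 and 592 CPM in Veh samples C02, C04 and C05 and at 441, 518, 429 and 460 CPM in Cort samples C01, C03, C06 and C10. Every Cort sample lay below every Veh sample, and the left-out samples were at 526 and 454 CPM (Veh, C07 and C09) and 270 CPM (Cort, C08). Chgb had a log2 fold change of -0.42 ± 0.13 (edgeR, P = 0.0042, Padj = 0.538, exact permutation P = 0.0286), and -0.41 ± 0.17 with all 10 samples (edgeR, Padj = 0.923), whose exact permutation P was 0.0238.

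Scg2 was at 1244, 1543 and 1559 CPM in the 3 Veh samples and at 1256, 1265, 1093 and 1022 CPM in the 4 Cort samples. The Veh sample C02 lay within the Cort range. For Scg2 the log2 fold change was -0.31 ± 0.11 (edgeR, P = 0.0108, Padj = 0.686, exact permutation P = 0.114). The left-out Veh samples C07 and C09 were lower than any Cort sample, at 943 and 815 CPM, the left-out Cort sample C08 was at 1096 CPM, and with all 10 samples the log2 fold change was -0.08 ± 0.16 (edgeR, Padj = 0.983). The difference of Scg2 was thus not seen when the left-out samples were included.

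The other granins differed less than their spread. Scg3 had a log2 fold change of -0.10 ± 0.13 (edgeR, Padj = 0.954), Chga -0.09 ± 0.24 (edgeR, Padj = 0.973) and Vgf, a granin-like precursor of peptides that act on energy balance, -0.21 ± 0.28 (edgeR, Padj = 0.953). Of 5 neuronal markers 1, Syt1, was also lower in Cort samples at P below 0.05, and their summed level overlapped between groups, at 3220 to 3607 CPM in the 3 Veh and 2949 to 3657 CPM in the 4 Cort samples. The summed level of 5 oligodendrocyte markers was higher in each of the 4 Cort samples (299.7 to 364 CPM) than in the 3 Veh samples (175 to 233 CPM). By log2 fold change 3 of these markers were higher and 2 were lower in Cort samples, and Mobp alone had Padj < 0.1 (edgeR). In the left-out samples the sum reached 505.5 CPM in Veh and 494 CPM in Cort, and its part in the granin values was not tested.

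The promoters of Scg2 and Chgb are shown because these granins had lower values in the Cort samples tested after 2 days and hold the same motif. The pair was picked after both were seen, so the shared motif was fixed by the choice and is not a result. The difference of Scg2 was not seen with the left-out samples included. Both sequences come from RefSeq (GRCm38.p6), run 5′ to 3′ along the gene's strand from 250 bases before to 50 bases after its start, and carry in capitals the cyclic AMP response element (CRE), the site bound by CREB. The window of Scg2 is chr1:79439977-79440276 (minus strand) and that of Chgb chr2:132781392-132781691 (plus strand).
Scg2: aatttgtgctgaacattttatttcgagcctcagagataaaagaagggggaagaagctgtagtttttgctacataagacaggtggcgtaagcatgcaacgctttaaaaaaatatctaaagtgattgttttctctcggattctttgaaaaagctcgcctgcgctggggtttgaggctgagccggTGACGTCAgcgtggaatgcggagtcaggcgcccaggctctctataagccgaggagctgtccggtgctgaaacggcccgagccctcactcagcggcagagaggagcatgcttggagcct
Chgb: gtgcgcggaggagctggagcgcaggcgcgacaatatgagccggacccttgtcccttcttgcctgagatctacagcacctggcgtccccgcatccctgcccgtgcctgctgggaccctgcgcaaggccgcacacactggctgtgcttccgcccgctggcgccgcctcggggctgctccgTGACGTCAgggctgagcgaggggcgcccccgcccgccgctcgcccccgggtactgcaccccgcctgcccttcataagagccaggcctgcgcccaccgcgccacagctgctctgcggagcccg

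The full element TGACGTCA begins 68 bases before the start in Scg2 and 72 bases before it in Chgb. It was searched on both strands, and its sequence reads the same on each. Of the 36 genes 25 had a promoter in the reference table, with 32 promoters in all, and the element was present in 2 of these 32, those of Scg2 and Chgb, and in 1.79% of all 32851 promoters of this length. The shorter letters TGACG, which the full element contains, were found on either strand in 14 of the 32 and in 20.8% of all promoters. The 14 include promoters of the granins Scg3 and Chga, which differed less than their spread. The full palindromic glucocorticoid response element, AGAACA, 3 bases of any kind and its reverse complement, was found in 0 of the 32 and in 3 of all promoters (0.009%). So rare a sequence cannot tell these 32 promoters from others, and the count of 0 says nothing of these genes. These are matches of letters in a short window and say nothing of binding.

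Apln encodes apelin, a peptide that acts on the receptor APLNR and is known to dampen vasopressin neurons. It was at 19.9, 13.8 and 26.8 CPM in Veh samples C02, C04 and C05 and at 2.90, 2.02, 10.9 and 14.7 CPM in Cort samples C01, C03, C06 and C10 after 2 days. C04 and C10 made the groups overlap. Apln had a log2 fold change of -1.40 ± 0.61 (edgeR, P = 0.0333, Padj = 0.803, exact permutation P = 0.143). The left-out samples were at 40.9 and 5.70 CPM (Veh, C07 and C09) and 3.48 CPM (Cort, C08), and over all 10 samples the log2 fold change was -1.66 ± 0.60 (edgeR, Padj = 0.910). Aplnr did not pass the filter and was at 0 to 3.67 CPM.

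**Figure D3:**
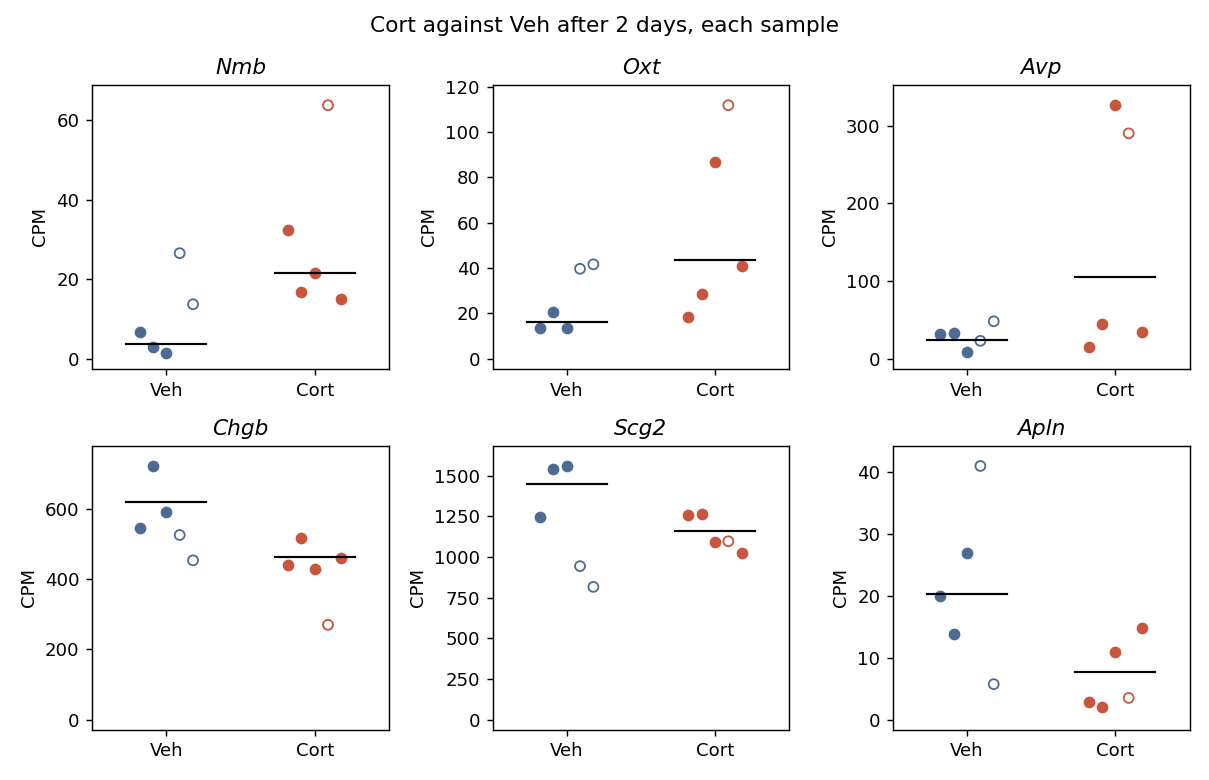
CPM of Nmb, Oxt, Avp, Chgb, Scg2 and Apln in each sample after 2 days on linear axes. Filled points are the samples tested, open points those left out by the study, and bars the means of the filled points. For Nmb and Chgb the filled points of Veh and Cort do not overlap, and for Avp the samples at 326 and 290 CPM are both Cort samples.

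The other precursors tested after 2 days had an unadjusted P of 0.05 or more. The opioid precursors Penk (proenkephalin) and Pnoc (prepronociceptin) had log2 fold changes of -0.40 ± 0.25 and -0.19 ± 0.42, and Tac1, the precursor of substance P, -0.06 ± 0.27. Trh, thyrotropin-releasing hormone, was at 0.02 ± 0.54, Nts (neurotensin) at 0.42 ± 0.79 and Cck (cholecystokinin) at 0.65 ± 0.59, which turned to -0.07 with all 10 samples and to -0.04 without the Cort sample C03. Adcyap1 (PACAP), Cbln1 and Cbln2, which are also expressed in the adjacent ventromedial nucleus, were at -0.67 ± 0.68, -0.13 ± 0.46 and -0.27 ± 0.52 on the log2 scale, and Padj was 0.889 or more for each of these 9 genes (edgeR). Nppc, Gnrh1, Rln1 (a relaxin), Vip and Bdnf ranged from -0.07 to 0.96 on the log2 scale, all with SE of 0.75 or more. Vip went from 0.96 to 6.68 without the Veh sample C05, the only one of the 3 Veh samples with counts, a value set by the prior count, and Gnrh1 from 0.44 to -0.63 with all 10 samples. Among the 24 genes 4 of the 22 tested with all 10 samples changed direction (Vgf, Cck, Gnrh1 and Chga), and 8 did when 1 sample was left out (Nts, Tac1, Vgf, Trh, Cck, Nppc, Chga and Cbln1).

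Some of these were uneven within a group. Gnrh1, which encodes gonadotropin-releasing hormone, was at 23.1 CPM (114 counts) in the left-out Veh sample C07 and 9.42 CPM in the left-out Cort sample C08, and at 0.179 to 3.58 CPM in the other 8 samples. Nppc, the precursor of C-type natriuretic peptide, was at 45.1 CPM in the left-out Veh sample C09 and at 2.23 to 14.7 CPM elsewhere. Nts was at 34.6 and 18.4 CPM in the Cort samples C08 and C01 and at 1.01 to 8.54 CPM in the others, and with all 10 samples its log2 fold change was 1.53 ± 0.73 (edgeR, Padj = 0.941). The 12 genes that did not pass the filter were Npw, Npff, Ucn3 and Calcb, which were at 0, and Nmu, Nms, Crh, Hcrt, Pmch, Npvf, Galp and Calca. The highest value of any of them was 8.08 CPM, for Galp (galanin-like peptide) in the Cort sample C03, and Calca, which encodes calcitonin and CGRP, reached 3.98 CPM.

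The same question was asked after 4 weeks of treatment. Of the 36 genes 14 were tested and 0 had P below 0.05 in edgeR, against 4.91% of the 11211 genes tested, 2.95% higher and 1.95% lower. None reached Padj < 0.1, against 0.0446% of genes. Without a filter on low counts edgeR gave 3 genes with P below 0.05, and DESeq2 gave 1. The samples did not overlap for 1 of the 14, Apln, against 6.53% of genes. The median log2 fold change over the 14 was 0.08, against 0.04 over all genes. With all 10 samples 12 genes were tested and 0 had P below 0.05, against 4.9% of genes.

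Apln was at 22.7, 17.3 and 18.4 CPM in Veh samples C02, C03 and C04 and at 0, 0, 1.03 and 11.4 CPM in Cort samples C07, C08, C09 and C10. Every Cort sample lay below every Veh sample. The fitted log2 fold change was -2.64 ± 1.58 (edgeR, P = 0.114, Padj = 0.990, exact permutation P = 0.0571), and without the Cort sample C10 it was -6.03 ± 1.80 (edgeR, Padj = 0.917), a value set by the prior count since the other Cort samples had 0 to 2 counts. The left-out samples were at 0.918 and 22.2 CPM (Veh, C01 and C05) and 38.7 CPM (Cort, C06), so that the highest of the 10 was a Cort sample, and with all 10 the log2 fold change was -0.67 ± 1.38 (edgeR, Padj = 0.993).

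Nmb was at 5.75, 8.85 and 8.06 CPM in the Veh samples C02, C03 and C04 after 4 weeks and at 9.70, 7.62, 7.22 and 26.1 CPM in the Cort samples C07 to C10. The groups overlapped, and the log2 fold change was 0.73 ± 1.14 (edgeR, Padj = 0.990). The left-out Veh samples were the highest and the lowest of the 10, at 47.7 CPM (C01) and 0.839 CPM (C05). Over all 10 samples the log2 fold change was -0.18 ± 1.05 (edgeR, Padj = 0.996). The direction of Nmb after 4 weeks therefore depended on the samples used.

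Penk, the precursor of the enkephalins, was at 47.3, 6.84 and 40.3 CPM in Veh and at 32.2, 78.6, 93.3 and 50.4 CPM in Cort. Of the 4 Cort samples 3 lay above every Veh sample. The left-out samples were at 16.5 and 30.6 CPM (Veh) and 36.5 CPM (Cort). Penk had a log2 fold change of 1.00 ± 0.71 (edgeR, Padj = 0.990, exact permutation P = 0.171) and 1.02 ± 0.66 with all 10 samples (edgeR, Padj = 0.991).

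Chgb and Scg2 had log2 fold changes of -0.39 ± 0.29 and -0.29 ± 0.21 after 4 weeks (edgeR, Padj = 0.990 for both). Chgb was at 505, 342 and 551 CPM in Veh and at 446, 432, 204 and 353 CPM in Cort, with the left-out samples at 196 and 906 CPM (Veh) and 369.9 CPM (Cort). Scg2 was at 1418, 1478 and 1100 CPM in Veh and at 1101, 1215, 1382 and 711 CPM in Cort, with the left-out samples at 1302 and 849 CPM (Veh) and 1335 CPM (Cort). For both genes the groups overlapped. With all 10 samples the log2 fold changes were -0.49 ± 0.33 for Chgb and -0.11 ± 0.22 for Scg2 (edgeR, Padj = 0.991 and 0.993). Chga was at 41.9, 86.5 and 48.4 CPM in Veh and 25.2, 2.38, 74.7 and 34.4 CPM in Cort, with the left-out samples at 31.2 and 10.9 CPM (Veh) and 19.2 CPM (Cort). It had a log2 fold change of -0.80 ± 0.82 and Scg3 -0.15 ± 0.33 (edgeR, Padj = 0.990 and 0.992).

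Several precursors were present after 4 weeks in 1 or a few samples. Vip had 127 counts (65.5 CPM) in the Cort sample C09, 1 count in C08 and 0 in the other 8 samples. C09 also held the highest Avp (18.0 CPM), Gnrh1 (18.6 CPM) and Nms (4.64 CPM, its only sample with counts) of the dataset. VIP, neuromedin S and vasopressin are made in the suprachiasmatic nucleus, and GnRH in the preoptic area nearby. Suprachiasmatic markers that are not peptide precursors of the list were highest in the same sample, with Lhx1 at 78.9 CPM against 0 to 7.07 CPM, Prok2 at 53.6 against 0 to 31.9 CPM and Rorb at 363 against 88.3 to 343 CPM. The precursor gene Grp, also taken as a suprachiasmatic marker, was at most 3.07 CPM in the dataset and was not highest in C09. Pou3f2, a marker of magnocellular neurons, was highest there as well, at 19.6 CPM against 0 to 5.51 CPM. The other markers of those neurons were not highest in C09. Caprin2 was at 40.7 CPM in C09 and 73.9 CPM in the Cort sample C07, and Sim1 at 0.515 CPM in C09 and 0.804 CPM in the Veh sample C03. C09 had the lowest total count of the 7 samples tested, 1837715, and the part of these cells in the values was not tested.

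Oxt had 41 counts (9.76 CPM) in the Cort sample C08 and at most 7 counts in the others. Bdnf, a neurotrophin, had 116 counts (27.6 CPM) in the same sample and at most 3 elsewhere. Cbln1 was at 75.9 CPM in the Cort sample C10 and at 0 to 15.2 CPM in the other 9. Ventromedial markers that are not precursors (Nr5a1, Fezf1 and Slit3) summed to 9.22 CPM in C10, within the range of the 3 Veh samples tested (4.42 to 19.6 CPM). Of these Fezf1 had counts in C10 alone (6.76 CPM), whereas Slit3 was lower there (2.15 CPM) than in each of those Veh samples.

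The other precursors tested after 4 weeks differed by less than 1.5 times their standard error. Trh had a log2 fold change of 1.90 ± 1.54 and Cbln1 of 1.16 ± 1.31, with Pnoc between them (SE 1.63). Cbln2, Nts, Vgf and Tac1 were at 0.37 ± 1.67, 0.09 ± 1.85, 0.08 ± 0.65 and -0.11 ± 1.10 on the log2 scale. Padj was 0.990 or more for each of these 7 genes (edgeR). Without the Cort sample C10 the value of Cbln1 was -1.07, and that of Cbln2 was -0.26 with all 10 samples. Among the 14 genes 2 changed direction with all 10 samples (Nmb and Cbln2) and 5 when 1 sample was left out (Nts, Tac1, Vgf, Cbln1 and Cbln2).

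**Figure D4:**
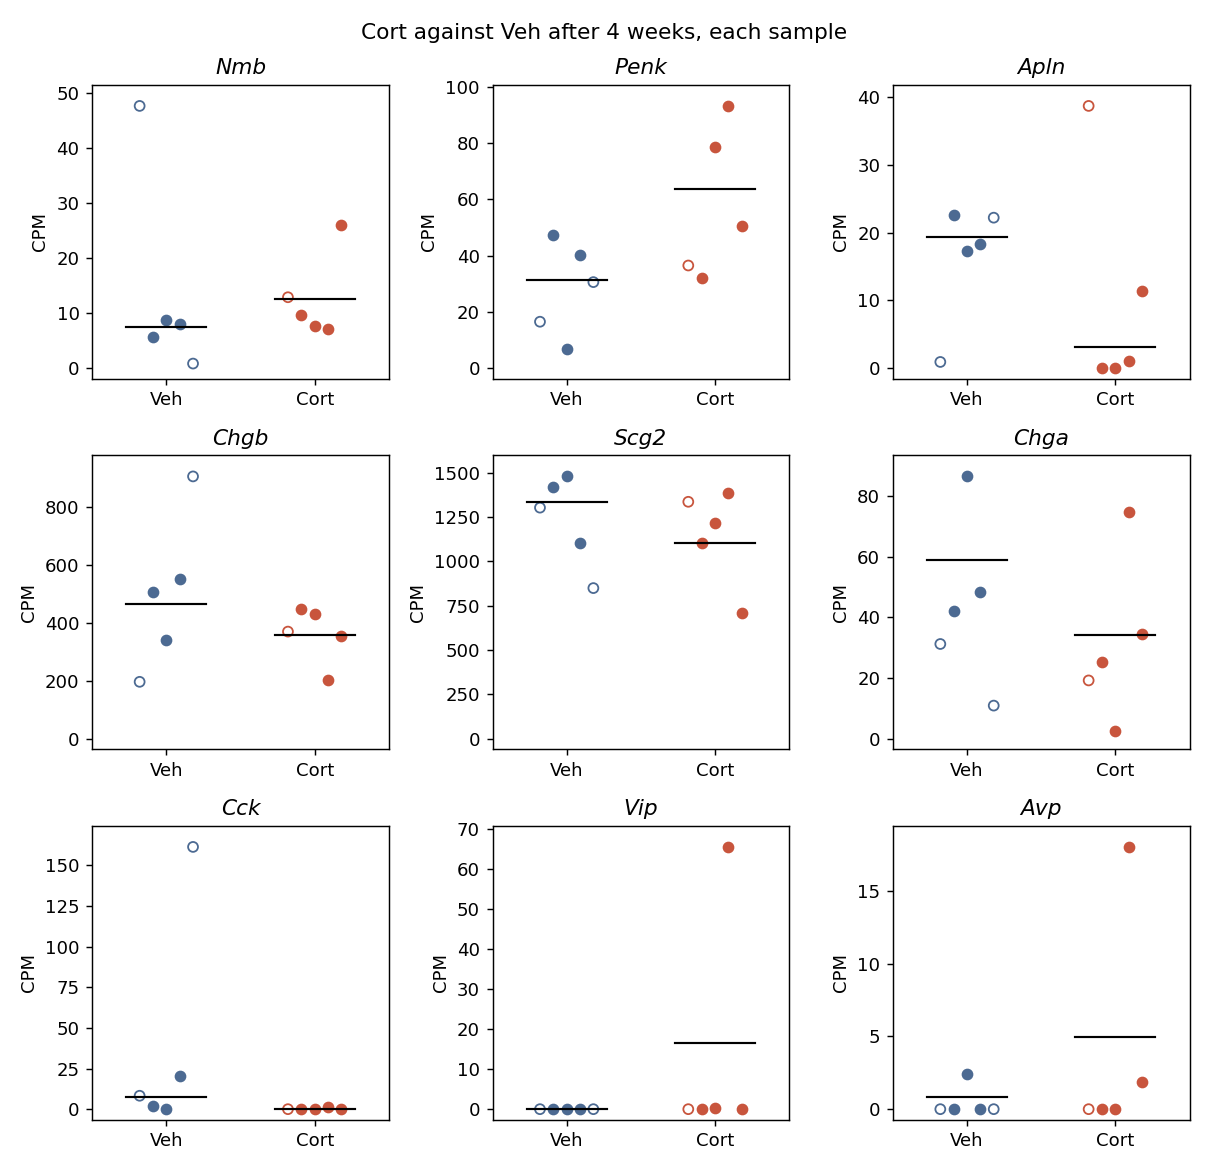
CPM of 9 precursor genes in each sample after 4 weeks on linear axes, with filled points for the samples tested, open points for those left out by the study and bars for the means of the filled points. Vip and Avp are high in the single Cort sample C09, and Cck in the left-out Veh sample C05 at 161 CPM.

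Whether the response to Cort differed between the datasets was tested as an interaction over the 14 samples. Of the 36 genes 24 were tested, 2 had P below 0.05, against 6.49% of the 12777 genes tested, and none had Padj < 0.1, against 0.0157%. The 2 genes were Cck and Vip, neither of which passed the filter on low counts in the 4 week dataset alone. The test uses the samples of both comparisons above again, and tissue capture and sequencing differed with the length of treatment.

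Cck was at 7.22, 15.5 and 17.9 CPM in Veh and at 4.95, 45.8, 13.4 and 21.5 CPM in Cort after 2 days, with the left-out samples at 21.5 and 63.0 CPM (Veh) and 33.2 CPM (Cort). After 4 weeks it was at 1.69, 0 and 20.2 CPM in Veh and at 0, 0, 1.03 and 0 CPM in Cort. The left-out Veh samples C01 and C05 of the 4 week set were at 8.26 and 161 CPM and the left-out Cort sample C06 at 0. All 5 Cort samples thus had 2 counts or fewer, and 1 of the 5 Veh samples had 0. The fitted difference of the log2 fold changes was -5.82 ± 2.01 (edgeR, Padj = 0.714), a value that depends on the prior count because the 4 week Cort samples were below the floor. Without the 4 week Veh sample C04 it was -2.82 (edgeR, Padj = 0.782). Over the 5 against 5 samples after 4 weeks an exact permutation test gave P = 0.0476, the lowest of the 36 genes tested in this way and not adjusted for them.

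For Vip the difference was 8.06 ± 3.71 (edgeR, Padj = 0.760), while DESeq2 gave 20.15 with Padj = 0.00698, and since all 4 week Veh samples had 0 counts neither value is a bound. Without the 4 week Cort sample C09 it was 0.91 (edgeR, Padj = 0.935), and without the 2 day Veh sample C05 it was 2.59 (edgeR, Padj = 0.9998). After 2 days Vip was at 0, 0 and 4.47 CPM in Veh and at 5.46, 4.38, 0.357 and 1.59 CPM in Cort, with the left-out samples at 0 and 1.14 CPM (Veh) and 2.66 CPM (Cort). Nmb, which had the largest 2 day log2 fold change of the 24 genes, had a difference of -1.79 ± 1.14 (edgeR, Padj = 0.853).

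Receptors for the peptides were taken as a list of 47 genes. After 2 days 39 were tested, 12 had a log2 fold change above and 27 below 0, and the median was -0.28, against 0.02 over all genes. Of these 4 had P below 0.05, all lower in Cort samples and against 2.83% of all genes: Ntsr1, Ramp3, Trhr and Adcyap1r1, which are named after their values were seen. Ntsr1, a neurotensin receptor, was at 9.45, 9.70 and 15.9 CPM in Veh and at 2.39, 5.39, 3.57 and 4.38 CPM in Cort, with no overlap and a log2 fold change of -1.57 ± 0.65 (edgeR, Padj = 0.766, exact permutation P = 0.0286). The left-out samples were at 8.91 and 1.43 CPM (Veh) and 4.91 CPM (Cort). Adcyap1r1, the PACAP receptor, was the most abundant of the 4 at 602 ± 42.3 CPM in Veh (SD, n = 3) and 488 ± 92.5 CPM in Cort (SD, n = 4), with a log2 fold change of -0.29 ± 0.14 (edgeR, Padj = 0.836).

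Ramp3, a subunit of amylin and adrenomedullin receptors, had a log2 fold change of -2.05 ± 0.91 and Trhr, the TRH receptor, -1.04 ± 0.45 (edgeR, Padj = 0.803 for both). Ramp3 was below the floor in the Cort samples C06 and C10, with 2 counts and 1 count. After 4 weeks 31 receptor genes were tested, 21 above and 10 below 0, with a median of 0.35, to be set against the 4 week median over all genes given above. Of the 31 only Npffr2, a receptor for RFamide peptides, had P below 0.05, against 4.91% of all genes, with a log2 fold change of 3.62 ± 1.54 (edgeR, Padj = 0.990). None of the receptor genes reached Padj < 0.1 in either dataset.

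The enzymes and vesicle proteins that process the precursors formed a list of 22 genes, all of them tested. After 2 days 7 had a log2 fold change above and 15 below 0, and the median was -0.05, against 0.02 over all genes. Of the 22 genes 1 had P below 0.05, against 5.97% of all genes (Dner, a neuronal transmembrane protein, -0.37 ± 0.16, edgeR Padj = 0.803). The convertase genes Pcsk1 and Pcsk2 were at -0.03 ± 0.21 and -0.10 ± 0.18, carboxypeptidase E (Cpe) at -0.06 ± 0.10 and the amidating enzyme Pam at -0.25 ± 0.13 on the log2 scale. After 4 weeks 2 of the 22 had P below 0.05, against 4.91% of all genes. Ctsl, cathepsin L, had a log2 fold change of 0.81 ± 0.35 (edgeR, Padj = 0.990).

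The second was Qpct, glutaminyl cyclase, which forms the pyroglutamate at the start of peptides such as TRH, neurotensin and orexin. It was at 71.7, 21.7 and 43.9 CPM in Veh samples C02, C03 and C04 and at 8.67, 13.8, 17.5 and 8.61 CPM in Cort samples C07 to C10 after 4 weeks. Every Cort sample lay below every Veh sample. Qpct had a log2 fold change of -1.92 ± 0.79 (edgeR, P = 0.027, Padj = 0.990, exact permutation P = 0.0286), and -1.95 ± 0.81 with all 10 samples (edgeR, Padj = 0.991), in which the left-out Veh samples were at 60.6 and 8.80 CPM and the left-out Cort sample at 5.35 CPM. After 2 days its log2 fold change was -0.37 ± 0.30 (edgeR, Padj = 0.926).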

How the data were processed

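Single-end reads of 50 bases were obtained from amplified cDNA of laser-captured arcuate nuclei. Per the authors' methods, reads were mapped to GRCm38 with Rsubread and the count of reads per gene was made with featureCounts. The annotation release, strand setting and treatment of multimapping reads are not given in the sources used here. The signal values used from the authors' normalised tables are DESeq2 means over the 7 samples they kept, and the raw counts reproduced them within a relative tolerance of 0.001 for 16068 of 16068 genes after 2 days and 15430 of 15430 after 4 weeks. The 14 columns of normalised values per sample were not used, because headers of the 2 day table could not be matched to the counts. The authors' DESeq2 fold changes and P values in those tables were not used either.

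Columns were assigned to Veh or Cort by the study's list of libraries, since the labels' replicate numbers do not name a column. Raw counts of the samples kept by the study (3 Veh, 4 Cort) were tested with edgeR 4.0.16 (R 4.3.3; filterByExpr, TMM, quasi-likelihood F test, Benjamini-Hochberg adjustment over all genes tested, Padj < 0.1, no covariate). The interaction was fitted over 14 samples. Two-sided exact permutation tests used mean log2 CPM with a prior count of 2, over 35 divisions of 3 against 4 samples and 252 of 5 against 5. Alternatives used DESeq2 1.42.0 and limma 3.58.1. Exon lengths and overlaps came from GENCODE M21 and promoters from RefSeq. The fitting code was tested on simulated data. The 36 genes, the receptor, processing and marker lists and the tests were chosen with earlier results of these data known. All 36 are named, with values per sample for those with P below 0.05 or very uneven values, and genes of other lists where they are the receptor or enzyme of such a gene, or as stated.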

Additional observations from a re-analysis of the deposited data

Results flagged for a closer look

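Single samples that stood apart from the other 4 of their group by Dixon's criterion were looked for in 28 groups of 5, where chance gives about 1 in 20. That rate does not apply directly here. The genes flagged had already been named for a P below 0.05 in these data (edgeR), and some groups hold mostly 0 counts. After 2 days the Veh sample C05 had Vip at 4.473 CPM, against 0 to 1.14 CPM in the other Veh samples, and the left-out Veh sample C09 had Cck at 63.03 CPM. After 4 weeks the left-out Veh sample C01 was the highest of its group for Nmb, at 47.73 CPM, and the lowest for Apln, at 0.9179 CPM. The left-out Veh sample C05 had Cck at 161.4 CPM after 4 weeks. In the 4 week Cort group C09 had Vip at 65.45 CPM and Avp at 18.04 CPM.

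The response to Cort differed between the datasets at an unadjusted P below 0.05 for 2 genes, with a log2 difference (4 weeks minus 2 days) of 8.06 for Vip and -5.82 for Cck (edgeR, Padj = 0.760 and 0.714).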

How the results depend on the processing

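Of 120 values of counts and medians recomputed under other settings 103 stayed within 1.5 times the value reported or within its spread, and 17 did not. For Apln, Avp, Cck, Chgb, Nmb, Oxt, Scg2 and Vip 188 of 195 fold changes kept their direction and side of the threshold, 4 passed it and 3 reversed. Other genes that changed direction are named with their results. After 2 days the number of precursor genes with Padj < 0.1 was 1 with DESeq2 and 2 without a filter on low counts, and leaving out 1 sample gave medians of -0.14 to 0.06 on the log2 scale. After 4 weeks the number with P below 0.05 was 1 with DESeq2, 3 without a filter, 2 with voom and quality weights over all 10 samples, and 0 to 1 with 1 sample left out. The median after 4 weeks was 1.00 with DESeq2 and 1.16 without a filter, each over more genes than the 14 reported. For the interaction DESeq2 gave 1 gene with Padj < 0.1, and the number with P below 0.05 was 5 without a filter and 1 to 5 with 1 sample left out. Cck after 2 days reversed to -0.07 with all 10 samples and to -0.04 without C03 (range -0.04 to 0.99), and Nmb after 4 weeks to -0.18 with all 10 samples. The cause was not tested. No paired analysis was possible because the columns of the count tables carry none of the labels' replicate numbers. At 4 weeks, where the lowest total counts were found, 22 of the 36 genes were not tested, and many values lie near the floor.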
